A study of Mus musculus with 11 samples.

Results

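The genes described here encode 43 subunits of ATP-dependent chromatin remodelers, taken by name as the listed subunits of the BAF/PBAF (SWI/SNF), ISWI and INO80/SRCAP complexes, of 38924 genes counted in each library. They fell into 28 BAF genes, 8 ISWI genes, 5 genes of the INO80 and SRCAP class and 2 further ATPases, Hells and Atrx. Gene expression was measured by RNA-Seq in cerebellar granule cell precursors (GCps), the dividing cells of the external granule layer that give rise to granule neurons, purified at P7 from Math1cre;Chd7flox/flox (cko) mice and Chd7flox/+ (control) mice, with 2 libraries from each. Both genotypes were on a C57Bl/6J background, and both carried a floxed Chd7 allele. The notes on RNA extraction give control pups as homozygous for the floxed allele, so the control genotype is given differently within the sources. Cre was driven in the granule lineage by Math1 (Atoh1) sequences, whose activity spares the most posterior lobules. The posterior lobules IX and X were cut away, pups of a genotype were combined, and cells were released with papain and enriched on a Percoll gradient. The sources do not say whether the libraries of a genotype came from separate animals. The 2 cko libraries differed in sex-linked transcripts, given with the X-linked subunits, and so held RNA of different pups. For the control libraries this is not known, and each p-value rests on the spread among 4 libraries, which may be partly technical.

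Remodelers use ATP to slide, evict or exchange nucleosomes. BAF complexes are built around SMARCA4 or SMARCA2, ISWI enzymes space nucleosomes, and the INO80 class moves nucleosomes and exchanges histone H2A.Z. BAF complexes change composition as neural progenitors leave the cell cycle: ACTL6A, PHF10 and SS18 are replaced by ACTL6B, DPF1, DPF3 and SS18L1, an exchange known from mouse neurons that accompanies the end of proliferation and dendrite growth.

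The 4 libraries held between 61836588 and 77346481 counted reads, with 1.86% and 3.80% on mitochondrial genes in cko libraries and 2.14% and 3.41% in control libraries. Chd7 itself had 392 and 355 CPM (reads of a gene per 1000000 counted reads, after scaling) in cko libraries, against 322 and 319 CPM in control libraries. These counts run over the whole gene and not the excised sequence, so they do not check the deletion. The 10 GCp markers, among them Atoh1, Barhl1, Zic1 and Pax6, were present in every library and went both ways. Of these, 6 had log2 fold changes above 0, with a median of 0.17. None passed an adjusted p of 0.05 in edgeR, and DESeq2 called 1. At an unadjusted p of 0.05 in edgeR, 3 were counted: Neurod1 (-0.71) and Pax6 (-0.30) on the lower side and Mki67 (0.38) on the higher side, as log2 fold changes. Of 7 markers of mature granule neurons, Gabra6 was at or near 0 in all libraries, while others were present and went both ways. Cadps2 had 60.1 and 92.3 CPM in cko libraries against 458 and 427 CPM in control libraries. Grin2c had 23.0 and 15.5 CPM in cko libraries against 1.10 and 2.59 CPM in control libraries. Of the 6 tested, 4 had log2 fold changes above 0, with a median of 0.13. Of 10 markers of postmitotic neurons, 3 were lower in cko GCps at an adjusted p of 0.05 in edgeR and 0 were higher, with summed levels of 3957 and 4792 CPM in cko libraries against 6097 and 5747 CPM in control libraries. Of 6 skeletal muscle markers, 3 were higher in cko GCps, with sums of 26.6 and 57.5 CPM in cko libraries against 7.23 and 5.45 CPM in control libraries. No marker of these 2 lists was at 0 in all libraries.

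All 43 subunits passed the filter on low counts and were tested. Dpf3, which encodes a histone-reading subunit of neuronal BAF complexes, rose about 2-fold in cko GCps and was the only subunit past an adjusted p of 0.05 in edgeR's quasi-likelihood test. That is 2.33% of the subunits, beside 1.58% of the 16436 genes tested in either direction and 0.809% called higher in cko GCps. Smarca2, the alternative BAF ATPase, had a higher mean and Actl6b, the neuronal actin-like subunit, a lower mean in cko GCps, and neither passed that threshold. The other 40 subunits had log2 fold changes between -0.27 and 1.00.

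At an unadjusted p of 0.05, 6 subunits were counted, 4 with higher and 2 with lower values in cko GCps. They were Smarca2, Dpf3, Bcl11b and Bptf on the higher side and Actl6b and Bcl7c on the lower side. They made up 14.0% of the subunits, against 13.6% of all genes tested. The cko and control libraries did not overlap for 24 subunits, 12 higher and 12 lower in cko, which is 55.8% against 43.9% of all genes. The number with a log2 fold change over 0 was also 24, or 55.8%, against 49.9% of all genes.

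Most of the subunits had narrow intervals. The 95% interval of the fold change lay within 1.5-fold either way for 37 of the 43 subunits, or 86.0%, and for 51.7% of all genes tested. The exceptions were Smarca2, Smarcd3, Dpf3, Actl6b, Bcl11b and Srcap. The subunits had a median log2 fold change of 0.01 and a median size of 0.11 without regard to sign, against medians of -0.00 and 0.15 over all genes tested. The subunits were more highly expressed than most genes, and over the 11989 genes in their range of mean expression the median size was 0.13. That range is wide, from Bcl11b to Smarca4. The share of narrow intervals was not computed for genes of like expression, so 86.0% and 51.7% are not matched for level.

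**Figure D1:**
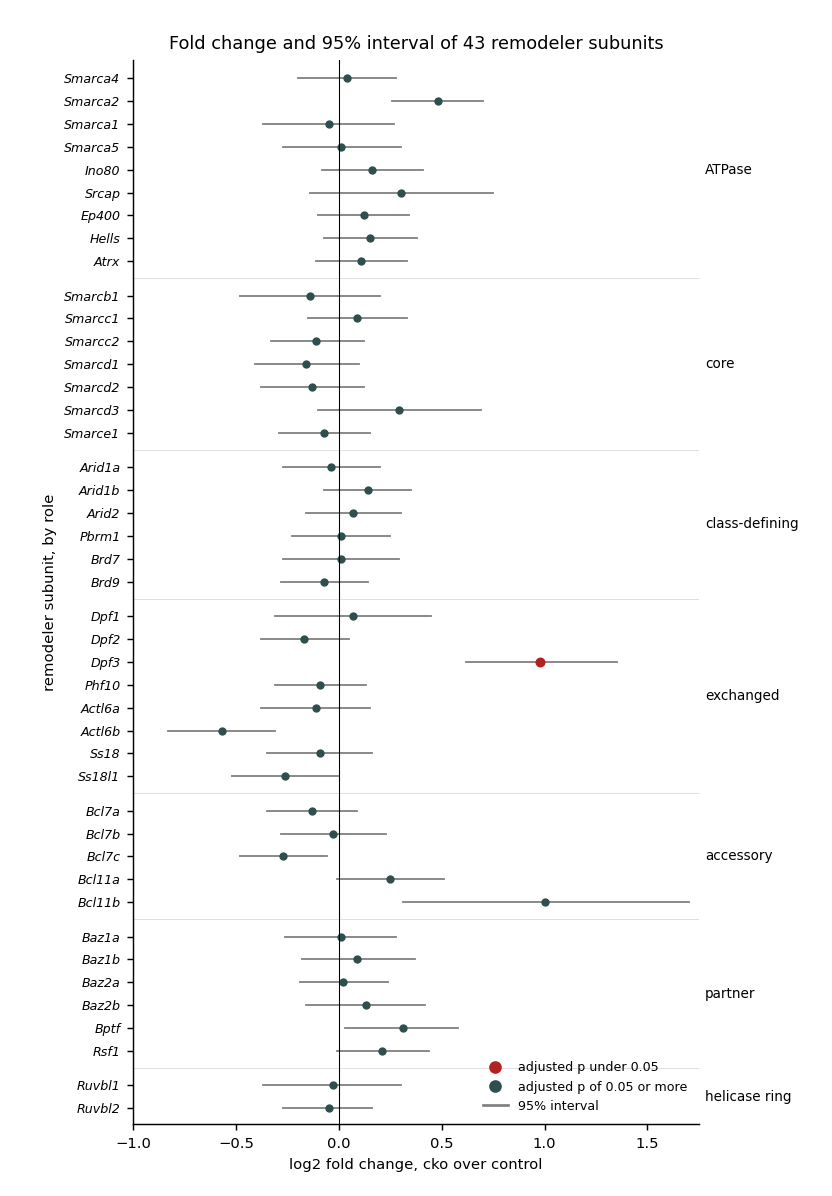
Log2 fold change (x axis, cko over control) of each of the 43 subunits, listed by role on the y axis. Points are edgeR estimates from 2 cko and 2 control libraries, bars their 95% intervals, and the red point marks Dpf3, the subunit past an adjusted p of 0.05.

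The ATPases are the motors of the complexes. SMARCA4 (BRG1) is the main BAF motor of neural progenitors, and Smarca4 had 549 and 569.5 CPM in cko libraries, against 523 and 563 CPM in control libraries. The ranges overlapped, with a log2 fold change of 0.04 ± 0.10 (SE) and a 95% interval from -0.20 to 0.28. Smarca2, which encodes the paralogous motor BRM, had 134 and 143 CPM in cko libraries, against 101 and 97.2 CPM in control libraries. Both cko values stood above both control values, with a log2 fold change of 0.48 ± 0.09 (SE) and an adjusted p of 0.0623 in edgeR's test.

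Smarca2 lay past the threshold with DESeq2, with an adjusted p of 0.00166, and in edgeR without the filter on low counts, at 0.0136. DESeq2 called 5.60% of its 15901 genes and edgeR without the filter called 3.12% of 23315 genes, and each called 3 of the 43 subunits, or 6.98%: Smarca2, Dpf3 and Actl6b. Leaving out a library in turn gave Smarca2 log2 fold changes between 0.43 and 0.54, with adjusted p from 0.0802 to 0.326 in edgeR. Smarca2 is expressed in many differentiated cell types, and markers of endothelium and mural cells were also higher in each cko library, with sums of 443 and 497 CPM in cko libraries, against 365 and 319 CPM in control libraries. Of these 8 markers, 0 passed an adjusted p of 0.05 in edgeR, 6 had an unadjusted p under 0.05, DESeq2 called 4, and none was at 0 in all libraries. Markers of other differentiated cells went both ways. Astrocyte and Bergmann glia markers summed to 623 and 637 CPM in cko libraries, against 758 and 819 CPM in control libraries. Oligodendrocyte lineage markers summed to 394 and 413 CPM in cko libraries, against 362 and 329 CPM in control libraries. All 7 had log2 fold changes above 0, Olig2 passed in edgeR at an adjusted p of 0.0415, and DESeq2 called 2. Sums for Purkinje cells and interneurons were 64.5 and 64.2 CPM in cko libraries, against 48.2 and 56.8 CPM in control libraries. Those for unipolar brush cells were 62.5 and 68.8 CPM, against 51.1 and 51.8 CPM. Sums of microglia markers overlapped between genotypes. Postmitotic neuron markers were lower in cko libraries, as given above. The part of any of these cells in the Smarca2 value was not tested.

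The ISWI motor Smarca5 (SNF2H), which is used by most ISWI complexes of dividing cells, had 373 and 419 CPM in cko libraries, against 361 and 423 CPM in control libraries. The cko values lay inside the control range, and the 95% interval of the log2 fold change ran from -0.27 to 0.30. Smarca1 (SNF2L), the ISWI motor linked to neuronal maturation, had 15.5 and 16.5 CPM in cko libraries, against 15.4 and 17.7 CPM in control libraries. These also overlapped, with an interval from -0.37 to 0.27.

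Within the INO80 class, the motor Ino80 had 45.6 and 42.4 CPM in cko libraries, against 40.0 and 38.6 CPM in control libraries. Ep400, the motor of the NuA4/TIP60 complex, had 241 and 242 CPM in cko libraries, against 216 and 229 CPM in control libraries. Both genes had higher values in each cko library, with log2 fold changes of 0.16 ± 0.10 for Ino80 and 0.12 ± 0.09 for Ep400 (SE) and adjusted p of 0.597 and 0.683 in edgeR. Srcap, which encodes the motor that deposits H2A.Z, had 41.6 and 28.3 CPM in cko libraries, against 29.1 and 27.7 CPM in control libraries. The first cko library alone was high, and the log2 fold change of 0.30 ± 0.18 (SE) became 0.01 without it.

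Hells (LSH), needed for DNA methylation of repeats, had 133 and 129 CPM in cko libraries, against 113 and 122 CPM in control libraries. Atrx, the remodeler that places histone H3.3 in repeat DNA, had 317 CPM in each cko library, against 286 and 300.3 CPM in control libraries. The libraries of the 2 genotypes did not overlap for either gene, and neither passed the test, with adjusted p of 0.579 for Hells and 0.702 for Atrx in edgeR. In all, 8 of the 9 ATPases had log2 fold changes above 0, with a median of 0.12, against 16 of the 34 other subunits, with a median of -0.03. None of the 9 was past an adjusted p of 0.05. The count above 0 changed with the library left out: without the first control library Smarca4 was at -0.01 and Smarca5 at -0.10, and without the second Smarca1 was at 0.06. Atrx and Smarca1 are X-linked. The X-inactivation transcript Xist had 793 CPM in the first cko library, and at most 0.548 CPM in the others, where the Y-linked Ddx3y, at 0.00 CPM in the first cko library, had at least 63.7 CPM. This is the pattern of female pups in the first cko library and of male pups in the other 3. The part of this in the Atrx and Smarca1 values was not tested.

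A group of 7 genes was taken here as the core of BAF complexes. It held Smarcb1, which contacts the nucleosome, the scaffold genes Smarcc1 and Smarcc2, and the HMG-box gene Smarce1. Smarcd1, Smarcd2 and Smarcd3, whose products bind transcription factors, were the others. Of the 7 genes, 5 had log2 fold changes below 0 and 2 above 0, between -0.16 and 0.29, and none passed the test. Smarcc2 had 403 CPM in each cko library, against 444 and 424 CPM in control libraries. Smarcd1 had 199.5 and 225 CPM in cko libraries, against 227 and 246 CPM in control libraries. Both were lower in each cko library, by small margins, with log2 fold changes of -0.11 ± 0.10 for Smarcc2 and -0.16 ± 0.11 for Smarcd1 (SE).

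Smarcd3, the form known from heart, muscle and neurons, was the core gene with the highest log2 fold change, 0.29 ± 0.17 (SE), with 15.8 and 14.1 CPM in cko libraries, against 13.7 and 10.7 CPM in control libraries. It was named after its values were seen. Of the exon length of Smarcd3, 48.2% also lies in exons of Chpf2 or the microRNA gene Mir671 on the opposite strand. Whether reads were counted by strand is not stated, so how reads in this shared stretch entered the Smarcd3 count is not known. Shorter overlaps with opposite-strand genes covered 11.6% of Actl6a, 10.7% of Ruvbl2, 9.56% of Phf10 and 7.13% of Smarcd1.

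The subunits that define the classes of BAF complexes were close to level. Arid1a and Arid1b encode the large DNA-binding subunits of canonical BAF, Arid2, Pbrm1 and Brd7 define PBAF, and Brd9 defines the non-canonical form. Their 6 log2 fold changes lay between -0.07 and 0.14, with a median of 0.01. Arid1b was higher and Brd9 lower in each cko library, and the other 4 overlapped between the genotypes. None of the 6 passed an unadjusted p of 0.05 in edgeR, and the 95% interval of each lay within 1.5-fold.

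The 8 subunits grouped here as exchanged between progenitor and neuronal BAF complexes held Dpf3, the subunit called in edgeR, and Actl6b, the subunit with the lowest log2 fold change. Dpf2, used in most cell types, was placed with the progenitor forms. Among the progenitor forms, Actl6a, an actin-like subunit needed for proliferation, had 143 and 124 CPM in cko libraries, against 150.4 and 138 CPM in control libraries. Phf10 had 53.0 and 55.0 CPM in cko libraries, against 56.9 and 58.0 CPM in control libraries. For Phf10 the genotypes did not overlap, while for Actl6a they did.

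Dpf2, a double PHD finger subunit used in most cell types, had 136 and 143 CPM in cko libraries, against 156 and 158 CPM in control libraries. Ss18, the progenitor partner of the BAF core, had 145 and 164 CPM in cko libraries, against 157 and 172 CPM in control libraries. Dpf2 was lower in each cko library and Ss18 overlapped. The progenitor forms Actl6a, Phf10 and Ss18 had log2 fold changes between -0.11 and -0.09, and Dpf2 had -0.17. None of the 4 passed an unadjusted p of 0.05 in edgeR.

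Among the neuronal forms, Dpf3 had 18.0 and 15.4 CPM in cko libraries, against 7.94 and 8.93 CPM in control libraries. Each cko value was well above each control value, and the spread within a genotype was small beside the gap, at 16.7 ± 1.84 CPM in cko and 8.44 ± 0.704 CPM in control (SD, n = 2 libraries each). The log2 fold change was 0.98 ± 0.15 (SE), with a 95% interval from 0.62 to 1.35 and an adjusted p of 0.0380 in edgeR. The adjusted p was 4.5e-06 with DESeq2 and 0.00144 in edgeR without the filter. The call was lost in edgeR without the first cko library, at an adjusted p of 0.0647, without the first control library, at 0.0887, and without the second control library, at 0.127. It was kept without the second cko library, at 0.0139, and the log2 fold change stayed between 0.88 and 1.09. Dpf3 is also known from heart and skeletal muscle in mouse. Skeletal muscle markers were higher in these cko libraries, as given above. The part of muscle RNA in the Dpf3 value was not tested.

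Actl6b, the neuronal counterpart of Actl6a, had 42.7 and 43.2 CPM in cko libraries, against 68.5 and 59.1 CPM in control libraries. Both cko values stood below both control values, with means of 42.9 ± 0.340 CPM in cko and 63.8 ± 6.62 CPM in control (SD, n = 2 libraries each). The log2 fold change was -0.57 ± 0.11 (SE), with a 95% interval from -0.83 to -0.31 and an adjusted p of 0.0628 in edgeR. It was past the threshold with DESeq2, at an adjusted p of 0.000842, and in edgeR without the filter, at 0.00685. The postmitotic neuron markers moved in the same direction, with the sums given above and a median log2 fold change of -0.64 over the 10 markers. The part of the neuron markers in the Actl6b value was not tested, and in bulk RNA fewer neurons and less Actl6b RNA per neuron cannot be told apart.

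The remaining neuronal forms did not follow Dpf3. Dpf1, another neuronal double PHD finger subunit, had 8.00 and 8.11 CPM in cko libraries, against 8.17 and 7.18 CPM in control libraries. Both cko values lay within the control range. Ss18l1 (CREST), a calcium-responsive coactivator, had 50.0 and 44.1 CPM in cko libraries, against 58.6 and 54.2 CPM in control libraries. It was lower in each cko library, with a log2 fold change of -0.26 ± 0.11 (SE), an unadjusted p of 0.0511 and an adjusted p of 0.373 in edgeR. The 4 neuronal forms thus had log2 fold changes of 0.98 for Dpf3, 0.07 for Dpf1, -0.26 for Ss18l1 and -0.57 for Actl6b.

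**Figure D2:**
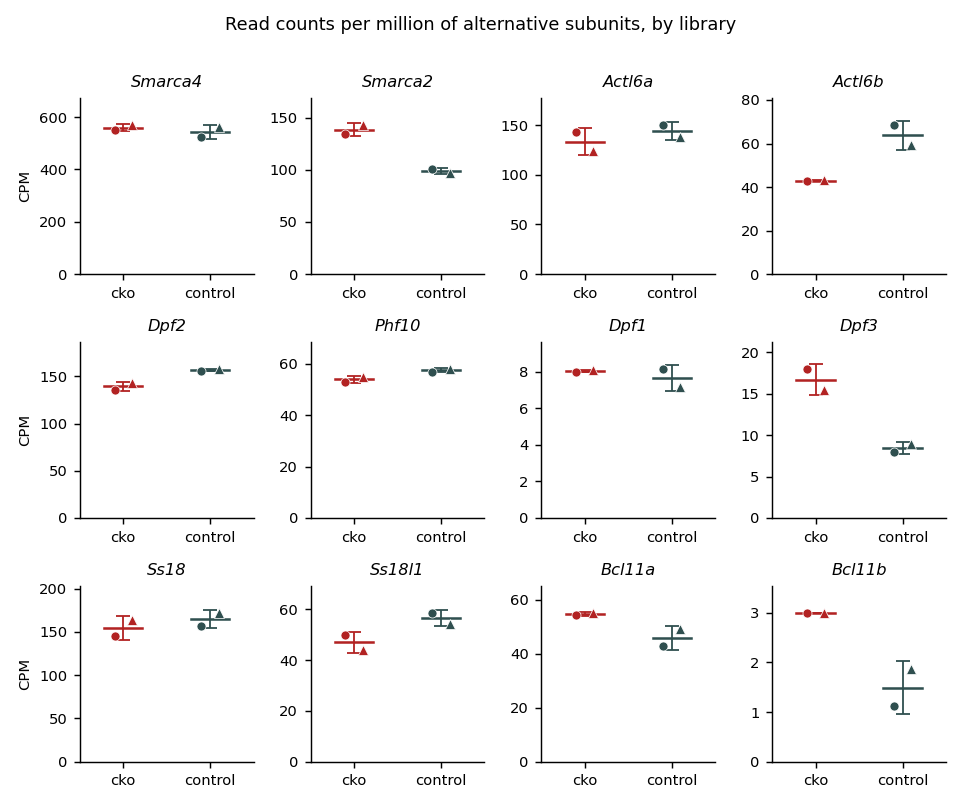
CPM (y axis, from 0) of 12 alternative subunits, cko at the left and control at the right of each panel. Circles are the first and triangles the second library of a genotype, wide lines the mean and bars the SD (n = 2 libraries); both cko points lie above both control points for Smarca2, Dpf3, Bcl11a and Bcl11b and below them for Actl6b, Dpf2, Phf10 and Ss18l1.

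The promoters of Dpf3, Smarca2 and Actl6b are printed because these 3 were the subunits called by DESeq2. Each runs 300 bases, 5′ to 3′ on the gene's strand, around the gene's RefSeq start in GRCm38.p6, with the GC box GGGCGG or its reverse complement CCGCCC in capitals. Dpf3 lies on the minus strand at chr12:83487687-83487986, Smarca2 on the plus strand at chr19:26604910-26605209 and Actl6b on the plus strand at chr5:137553296-137553595.
Dpf3: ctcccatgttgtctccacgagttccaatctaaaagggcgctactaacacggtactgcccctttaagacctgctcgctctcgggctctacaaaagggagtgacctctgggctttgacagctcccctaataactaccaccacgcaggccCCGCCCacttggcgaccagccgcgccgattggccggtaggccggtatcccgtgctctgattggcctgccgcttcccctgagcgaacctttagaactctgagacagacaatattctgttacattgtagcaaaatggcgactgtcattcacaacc
Smarca2: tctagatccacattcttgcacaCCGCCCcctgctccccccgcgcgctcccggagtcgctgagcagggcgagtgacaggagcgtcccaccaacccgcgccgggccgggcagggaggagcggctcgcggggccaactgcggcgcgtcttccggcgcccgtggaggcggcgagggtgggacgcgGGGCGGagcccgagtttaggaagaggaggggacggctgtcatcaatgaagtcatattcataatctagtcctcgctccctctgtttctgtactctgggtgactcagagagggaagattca
Actl6b: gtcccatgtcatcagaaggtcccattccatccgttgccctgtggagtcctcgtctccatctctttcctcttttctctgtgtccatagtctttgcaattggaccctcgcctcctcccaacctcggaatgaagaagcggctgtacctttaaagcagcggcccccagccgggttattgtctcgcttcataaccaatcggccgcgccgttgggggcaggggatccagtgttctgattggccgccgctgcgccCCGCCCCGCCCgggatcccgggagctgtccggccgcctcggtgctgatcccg

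The Dpf3 window held 1 GC box and 55.3% G and C, the Smarca2 window 2 GC boxes and 65.7%, and the Actl6b window 2 overlapping GC boxes and 61.7%. A GC box was found on either strand in 33 of the 37 subunit promoters in the RefSeq table, and in 35.7% of all 32851 promoter windows. None of the 3 printed windows held an E-box of the forms CAGCTG or CAGATG, which bHLH factors such as ATOH1 and NEUROD1 can bind and which 16.3% and 17.2% of all windows held. Over the subunits, 7 windows held CAGCTG and 3 held CAGATG. The matches are only of letters in these windows.

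The accessory BAF subunits included Bcl11b, a zinc finger factor of neurons and T cells, which was the subunit with the lowest level. It had 3.00 and 2.99 CPM in cko libraries, against 1.12 and 1.87 CPM in control libraries. Each cko value exceeded each control value, and the log2 fold change was 1.00 ± 0.29 (SE), with an unadjusted p of 0.0112 and an adjusted p of 0.177 in edgeR. Leaving out the first control library gave 0.67 and leaving out the second gave 1.41, so this value rested on which control library was used. Its paralogue Bcl11a had a log2 fold change of 0.25 ± 0.11 (SE), with no overlap between genotypes and an adjusted p of 0.383.

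Bcl7c, a small subunit of BAF complexes, had 83.2 and 82.7 CPM in cko libraries, against 102 and 97.9 CPM in control libraries. Both cko values were lower, with a log2 fold change of -0.27 ± 0.09 (SE), an unadjusted p of 0.0194 and an adjusted p of 0.235 in edgeR. Its paralogues Bcl7a and Bcl7b had log2 fold changes of -0.13 ± 0.09 and -0.03 ± 0.11 (SE).

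The ISWI partners direct Smarca5 and Smarca1 to their targets. Bptf, the large NURF subunit that reads methylated histone H3, had 174 and 144 CPM in cko libraries, against 128 and 129 CPM in control libraries. Each cko value was higher, the first by more, and the log2 fold change of 0.31 ± 0.12 (SE) had an unadjusted p of 0.0330 and an adjusted p of 0.301 in edgeR. It was 0.17 without the first cko library. The 5 others were Baz1a (ACF1), Baz1b (WSTF), Baz2a (TIP5, a silencer of ribosomal genes), Baz2b and Rsf1, and of these only Rsf1 did not overlap between genotypes, with a log2 fold change of 0.21 ± 0.09 (SE). All 6 partners had log2 fold changes above 0, between 0.01 and 0.31, and none passed the test. This shared direction rested on the first cko library: without it Baz1a, Baz1b and Baz2b were each at -0.03 and Baz2a at 0.00.

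Ruvbl1 and Ruvbl2 encode the helicase ring of the INO80 class. They had log2 fold changes of -0.03 ± 0.14 and -0.05 ± 0.09 (SE), and the genotypes overlapped for Ruvbl1 and not for Ruvbl2.

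Other genes of the same complexes were tested in the same fit. Of 53 further partners tested (BAF, ISWI, INO80, SRCAP and TIP60 subunits, H2A.Z, partners of ATRX and HELLS, and other Snf2-like ATPases), 0 passed an adjusted p of 0.05 in edgeR and 0 did so in DESeq2. At an unadjusted p of 0.05, 3 were counted, or 5.66%, against 13.6% of all genes tested: H2afv, which encodes an H2A.Z variant, on the lower side, and the DNA repair ATPases Zranb3 and Rad54b on the higher side. The 53 log2 fold changes lay between -0.24 and 0.45, with a median of -0.02, and 22 were above 0. Among the 12 other Snf2-like ATPases, 10 were above 0, with a median of 0.08.

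The balance between paralogues that can take the same place was compared as a log2 ratio of counts in each library, over 16 pairs. The Dpf3 to Dpf2 ratio was -2.92 and -3.22 in cko libraries, against -4.30 and -4.14 in control libraries, on the log2 scale. It was higher in both cko libraries, by 1.15. The Smarca2 to Smarca4 ratio was -2.03 and -1.99 in cko libraries, against -2.37 and -2.53 in control libraries, a difference of 0.44. The Actl6b to Actl6a ratio was -1.75 and -1.52 in cko libraries, against -1.14 and -1.23 in control libraries, a difference of -0.45, in the direction of the progenitor form.

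The Bcl11b to Bcl11a ratio differed by 0.79 and the Smarcd3 to Smarcd1 ratio by 0.46, while the Dpf1 to Dpf2 ratio differed by 0.24, all higher in cko. In 11 of the 16 pairs the genotypes did not overlap. No share over other pairs of genes stands beside this count. Smarcd1, Dpf2 and Bcl7a recur among the pairs, so the pairs are not independent. The 2-sided exact permutation test over 4 libraries cannot give a p below 0.333, which was the value for each of these 11 pairs, and the lowest adjusted p over the 16 pairs was 0.485. None of these differences could therefore pass a threshold of 0.05. For Ss18l1 to Ss18, Smarcd2 to Smarcd1, Baz1b to Baz1a, Baz2b to Baz2a and Ruvbl2 to Ruvbl1 the ratios overlapped.

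As shares of the level per exon length, in RPKM (CPM per 1000 bases of exon), Dpf3 made up 11.3% and 9.49% of the summed BAF45 family (Dpf1, Dpf2, Dpf3 and Phf10) in cko libraries, against 4.82% and 5.35% in control libraries. Dpf2 remained the main form, with 55.9% and 57.4% in cko libraries, against 61.6% and 61.4% in control libraries. Smarca2 made up 9.98% and 10.2% of the summed RPKM of the BAF motors in cko libraries, against 8.06% and 7.27% in control libraries. Smarca4 was thus the main motor in every library. The Smarca2 share depends on the length used, and with the longest transcript in place of all exons it was 20.8% and 21.3% in cko libraries, against 17.2% and 15.7% in control libraries. Actl6b made up 21.3% and 24.1% of the summed Actl6a and Actl6b RPKM in cko libraries, against 29.3% and 28.0% in control libraries. In the ISWI pair, Smarca5 held at least 94.9% in every library.

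**Figure D3:**
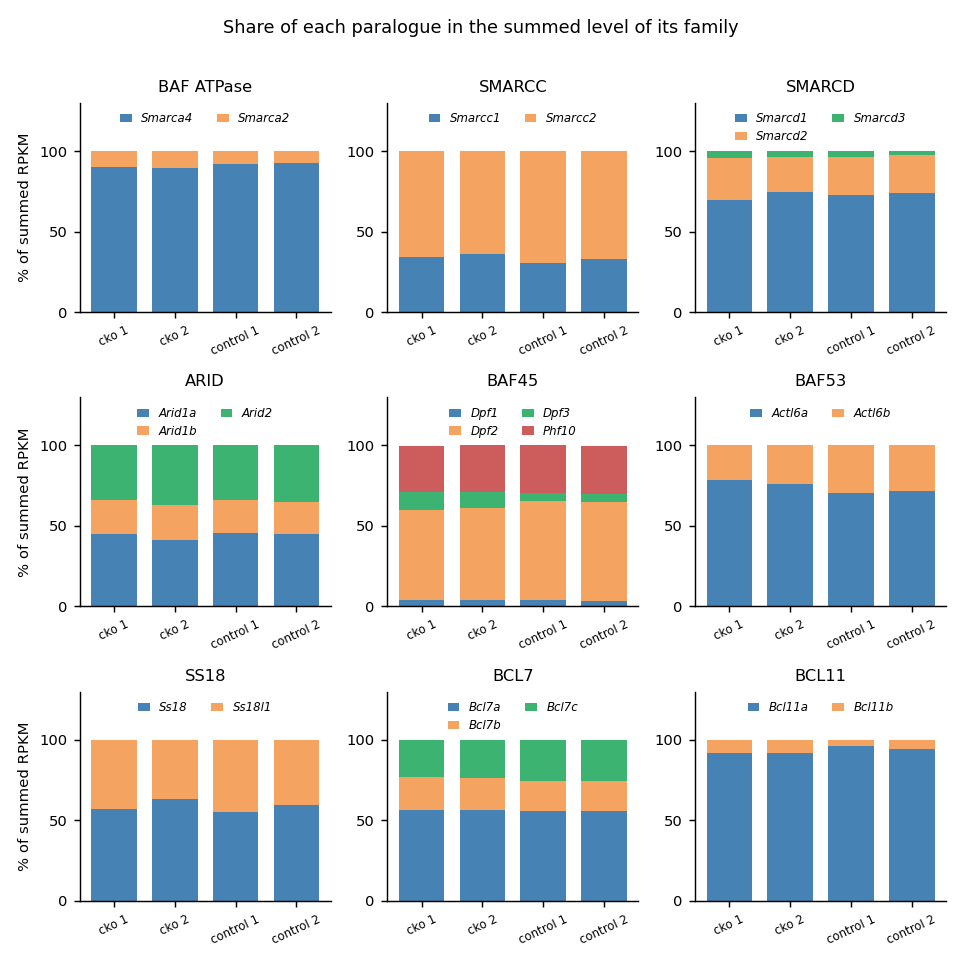
Share of each paralogue in the summed RPKM of its family (y axis, percent) in each library (x axis, cko libraries at the left). Dpf3 is wider in the cko bars of the BAF45 panel and Actl6b narrower in those of the BAF53 panel, while Smarca4, Smarcc2, Dpf2, Actl6a and Bcl11a are the largest shares of their families in all 4 libraries.

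Levels per length set the order of the subunits within GCps. By mean RPKM over the 4 libraries, Smarca4 was highest at 85.1, followed by Smarcc2 at 75.4 and Smarcd1 at 55.7. The lowest were Srcap at 2.01, Dpf1 at 1.46 and Bcl11b at 0.277 RPKM. Neighbours in this order overlapped over the 4 libraries in 31 of 42 pairs, so most of the order was not separated. Smarca4, Smarcc2, Ino80, Dpf1 and Bcl11b stood clear of their neighbours. The subunits had a median of 14.0 RPKM, against 4.12 RPKM over all genes tested, and 36 of the 43 lay above the median of all genes tested.

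Among the forms that differ between progenitors and neurons, the mean RPKM of Actl6a was 35.8 and that of Actl6b was 12.5. Within the BAF45 family, it was 22.8 for Dpf2, 11.3 for Phf10, 2.97 for Dpf3 and 1.46 for Dpf1. Ss18 had 16.9 and Ss18l1 had 11.9 RPKM. With the longest transcript as the length, Smarce1 took the highest place, so the top of the order depends on the gene model, while Srcap, Dpf1 and Bcl11b were again the last 3.

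**Figure D4:**
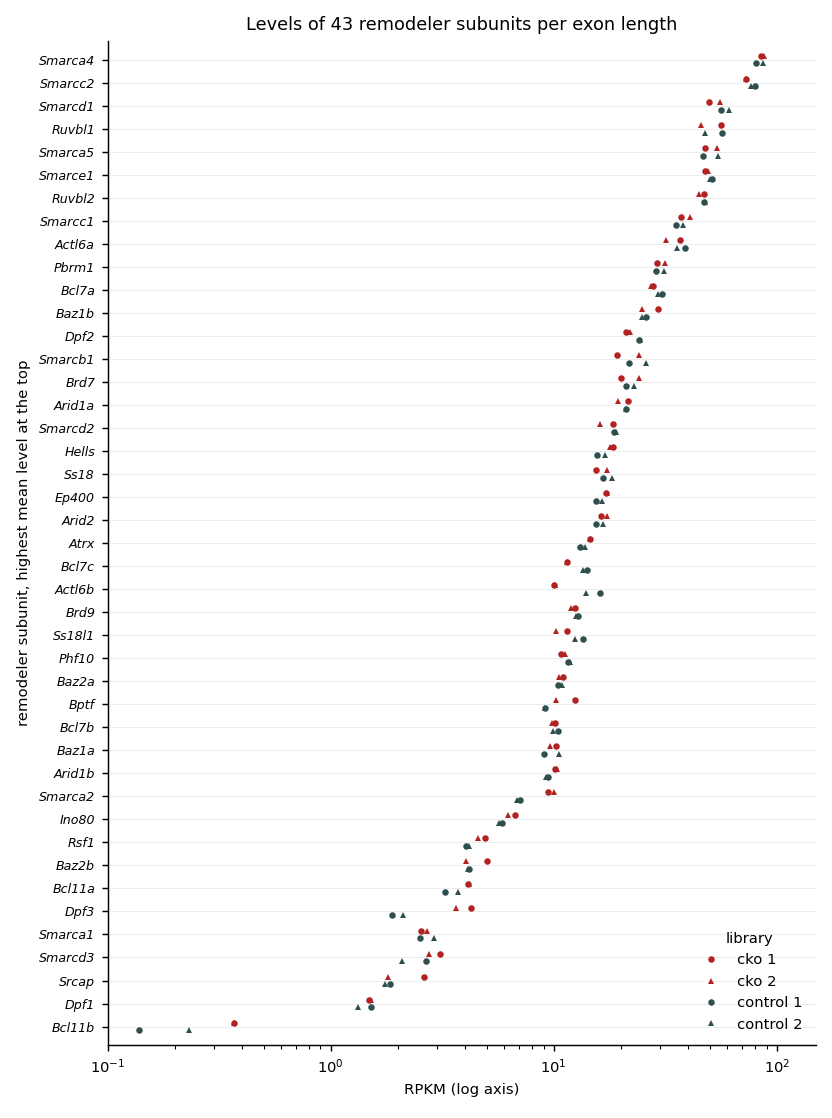
Level of each subunit in RPKM (x axis, log scale) in 2 cko libraries (drawn above) and 2 control libraries (drawn below), with the highest mean at the top of the y axis. Smarca4 and Smarcc2 stand at the top and Bcl11b at the bottom. Values of cko and control do not overlap for 24 of the 43 subunits, among them Dpf3, Bcl11b, Smarca2 and Actl6b.

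How far the calls hold can be read from the 4 subunits with the largest fold changes. Dpf3 was below an adjusted p of 0.05 in 5 of the 8 settings drawn, Smarca2 and Actl6b in 2 each, and Bcl11b in 0. The settings were edgeR as reported, with another normalization (RLE), without the filter on low counts, without each library in turn, and DESeq2. Their directions were the same in all 8. The genotypes did not overlap for these genes, so leaving out a library could hardly turn a direction.

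**Figure D5:**
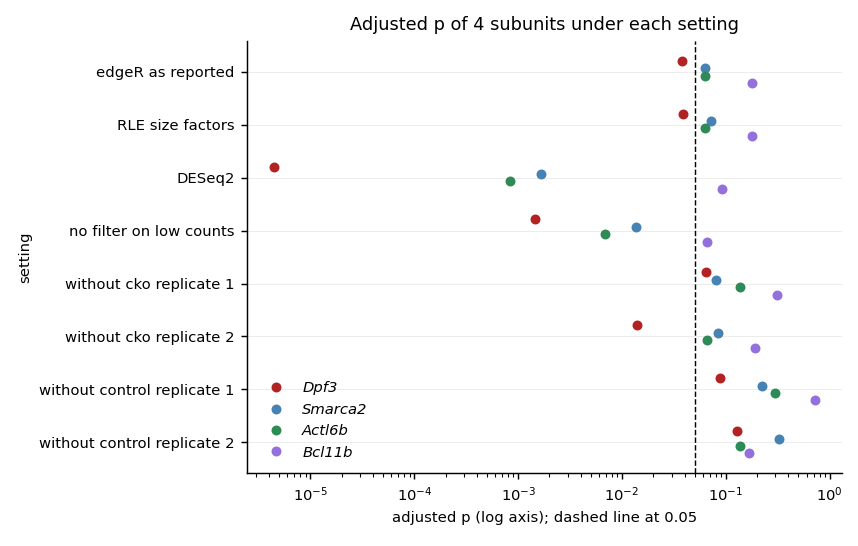
Adjusted p (x axis, log scale) of Dpf3, Smarca2, Actl6b and Bcl11b under 8 settings (y axis), with the threshold of 0.05 as a dashed line. DESeq2 and edgeR without the filter give the lowest values, and 3 of the 4 settings that leave out a library put all 4 genes to the right of the line.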

How the data were processed

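RNA-Seq was done on 2 cko and 2 control GCp libraries at P7. The files deposited by the authors hold whole-number counts per gene from HTSeq (0.6.1p1, intersection-strict mode, alignment quality of at least 3, Ensembl release 75), after trimming by Trim Galore (0.4.1) and alignment to mm10 by TopHat2 (2.0.14). Whether counting used strand is not stated in the sources. Versions are from the submitters' processing notes. The ATAC-Seq and ChIP-Seq samples were not analysed here.

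Genes were named from GENCODE vM21 (37607 of 38924). The deposited counts were tested in edgeR (4.0.16, R 4.3.3): low counts were filtered with filterByExpr, libraries were scaled by TMM, and the quasi-likelihood test was adjusted by Benjamini-Hochberg over all 16436 genes kept, at a threshold of 0.05. DESeq2 (1.42.0), RLE factors, no filter, a replicate term and leaving out each library were alternatives. The fit was tested on simulated data. CPM and RPKM are per 1000000 TMM-scaled reads, with RPKM per 1000 bases of all exons of a gene or, as an alternative, of its longest transcript. Paralogue ratios used counts plus 0.5 and an exact permutation test. Promoters are from a RefSeq table.

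The subunits and all gene lists were chosen with earlier results of these data known. Values are given per library for subunits called in any fit of all 4 libraries or with an unadjusted p under 0.05, ATPases, exchanged subunits and the 3 highest and lowest levels. Other subunits given single values, and the promoters, were chosen after the values were seen.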

Additional observations from a re-analysis of the deposited data

How the results depend on the processing

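The counts of calls depended on the test. Over all genes, 260 were called by edgeR, 891 by DESeq2 and 727 in edgeR without the filter on low counts, and between 115 and 712 when a library was left out. Over the 43 subunits, 1 was called by edgeR, 3 by DESeq2, 3 without the filter, and between 0 and 1 when a library was left out. The count was 0 without the first cko library and without either control library. With RLE factors the counts were 259 and 1. The count over the 53 partner genes was 0 under each alternative. With the number in the labels as a replicate block, 1010 genes and 4 subunits were called (Dpf3, Smarca2, Actl6b and Bcl11b). The labels share only these numbers, and the deviations of the first libraries of the genotypes correlated at 0.187 over genes. Of the log2 fold changes of subunits given by library, some near 0 changed sign when a library was left out: Smarca4 ran from -0.01 to 0.09, Dpf1 from -0.02 to 0.16, Ss18 from -0.19 to 0.00, Smarca1 from -0.15 to 0.06 and Smarca5 from -0.10 to 0.13. Other subunits changed sign too, among them Smarcb1, from -0.31 to 0.02, Brd7, from -0.13 to 0.15, and Ruvbl1, from -0.18 to 0.11. Arid1a, Pbrm1, Baz1a, Baz1b, Baz2a and Baz2b did so as well. The differences in paralogue ratio kept their sign under each alternative in 11 of 16 pairs. These were the pairs whose genotypes did not overlap, where leaving out a library cannot turn the sign. In the other 5 (Smarcd2 to Smarcd1, Ss18l1 to Ss18, Baz1b to Baz1a, Baz2b to Baz2a and Ruvbl2 to Ruvbl1) the sign turned when a library was left out. With the longest transcript as the length, the log2 ratio of the Ruvbl2 level to the Ruvbl1 level was 0.00 in place of -0.14, and 11 other ratios of levels moved by more than the spread between libraries. The cause of these changes was not tested. With 2 libraries per genotype, a difference of Dpf3's size passed or missed the threshold with the library left out, and intervals wider than 1.5-fold leave Srcap, Smarcd3 and Bcl11b unresolved.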

Other observations

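Across the 43 subunits, Spearman's rho between the log2 fold change, cko over control, and the exon length was 0.52 (43 genes). It lay between 0.39 and 0.59 when a library was left out. Over 16236 tested genes with a length the rho was 0.17, and between 0.05 and 0.20 without a library. This is a description across genes that share the same 4 libraries, with no test, and genes are not independent replicates.

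The 6 muscle markers, all detected, had a median log2 fold change of 2.66. Of 7 mature granule neuron markers, 6 were tested, and they went both ways. Cadps2 and Kcnd2 were lower in cko at an adjusted p of 0.05 in edgeR, while 4 of the 6 had log2 fold changes above 0, and the median was 0.13. Grin2c had 23.0 and 15.5 CPM in cko libraries, against 1.10 and 2.59 CPM in control libraries, with an adjusted p of 0.0566 in edgeR. The sum of all 7, mostly Cadps2, was 106 and 144 CPM in cko libraries, against 518 and 486 CPM in control libraries. The part of these cells in the subunits' values was not tested.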
